A study of Mus musculus with 21 samples.

Results

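RNA polymerase II and its general transcription factors were followed through mouse preimplantation development as a set of 54 genes: every protein-coding gene whose symbol begins with Polr2, Gtf2 or Taf followed by a digit, plus Tbp and Tbpl1. Of these, 47 had at least 1 of the 22612 transcripts in the merged long-read annotation, as part of 14885 measured features that included 9759 protein-coding genes. The 7 others, Polr2a, Taf1, Taf5, Taf6l, Taf7l, Taf15 and Gtf2ird2, had no assigned transcript and were not measured here. Their longest coding transcripts had a median length of 3260 bases, against 2245 bases for the 47 measured members. Polr2a encodes the catalytic subunit and Taf1 and Taf5 encode scaffold subunits of TFIID, so the values describe the remaining subunits of both complexes.

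Short-read RNA sequencing gave 2 libraries for each of 7 stages, 14 in all, and full-length long-read sequencing gave 1 pool of each stage. Sperm came from the epididymis of DBA/2J males and oocytes from superovulated C57/BL6J females aged 3 to 5 weeks, collected 20 h after human chorionic gonadotropin (hCG); the protocol text writes DBA/2N for the males. Embryos were ♂DBA/2J × ♀C57/BL6J crosses taken at 24 to 26 h (1-cell), 46 to 48 h (2-cell), 54 to 58 h (4-cell), 68 to 70 h (8-cell) and 94 to 96 h (blastocyst) after hCG. All embryos shared this cross, superovulation, culture in KSOM medium and collection as pools, so a value belongs to a pool and not to an embryo. The study states that 2 batches of samples were collected at each stage and that part of each batch's cDNA gave short reads. It mixed the cDNA of both batches for long reads, so long and short reads share material. Nothing in the labels ties the 2 libraries of a stage to separate matings, and p-values measure only the spread between these libraries.

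Values are TPM, a level relative to all transcripts of the library, corrected for transcript length and summed here over a gene's transcripts. TPM keeps no read number, so the reads behind each gene's value are not known; the study's quality control lists total reads per library, with 2-cell replicate 2 read more deeply than 2-cell replicate 1, and these totals were not used here. Features at 1 TPM or more numbered 8173 to 13085 per library, and the 10 most abundant features held 5.11% to 30.1% of all TPM. The sperm marker list summed to 17183 and 21155 TPM in sperm and to at most 17.1 TPM in any other library. The oocyte list stood at 5111 and 16622 TPM in oocytes and the blastocyst list at 9424 and 35452 TPM in blastocysts, so these stages carried their labelled markers. The 2 libraries of the 2-cell stage stood apart from each other: replicate 1 had 20.2 TPM of the 2-cell embryo list and 96.2 TPM of the oocyte list, against 332 and 1175 TPM in replicate 2. The median over features of the SD between replicates on the log2 scale was 1.03 at the 2-cell stage. It was 0.20 to 0.64 at the other stages from oocyte to blastocyst. In pools of embryos or gametes, fewer cells of a type and less RNA per cell cannot be told apart.

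RNA polymerase II transcribes all protein-coding genes. TFIID, made of TBP and the TBP-associated factors (TAFs), recognises the core promoter with TFIIA and TFIIB, TFIIF escorts the polymerase, TFIIE recruits TFIIH, and TFIIH opens the DNA and phosphorylates the polymerase tail. In the mouse the fertilised egg starts with transcripts stored by the oocyte, and the major wave of embryonic transcription falls at the 2-cell stage. Germ cells and the oocyte use paralogs of several of these factors, among them Tbpl1, Taf4b, Gtf2a1l and Tbpl2.

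The summed level of the 47 members was highest at the 4-cell stage. It was 1533 and 2938 TPM in sperm, 8612 and 7465 TPM in oocytes, 6211 and 4033 TPM in 1-cell embryos, 7313 and 7245 TPM in 2-cell embryos, 9797 and 9854 TPM in 4-cell embryos, 8242 and 7174 TPM in 8-cell embryos and 3599 and 2991 TPM in blastocysts. By mean TPM, 22 members (46.8%) had their highest level at the 4-cell stage, against 18.4% of the 13465 tested features. Another 8 were highest in oocytes, 8 at the 2-cell stage, 4 at the 1-cell stage, 3 at the 8-cell stage, 2 in sperm and 0 in blastocysts.

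**Figure D1:**
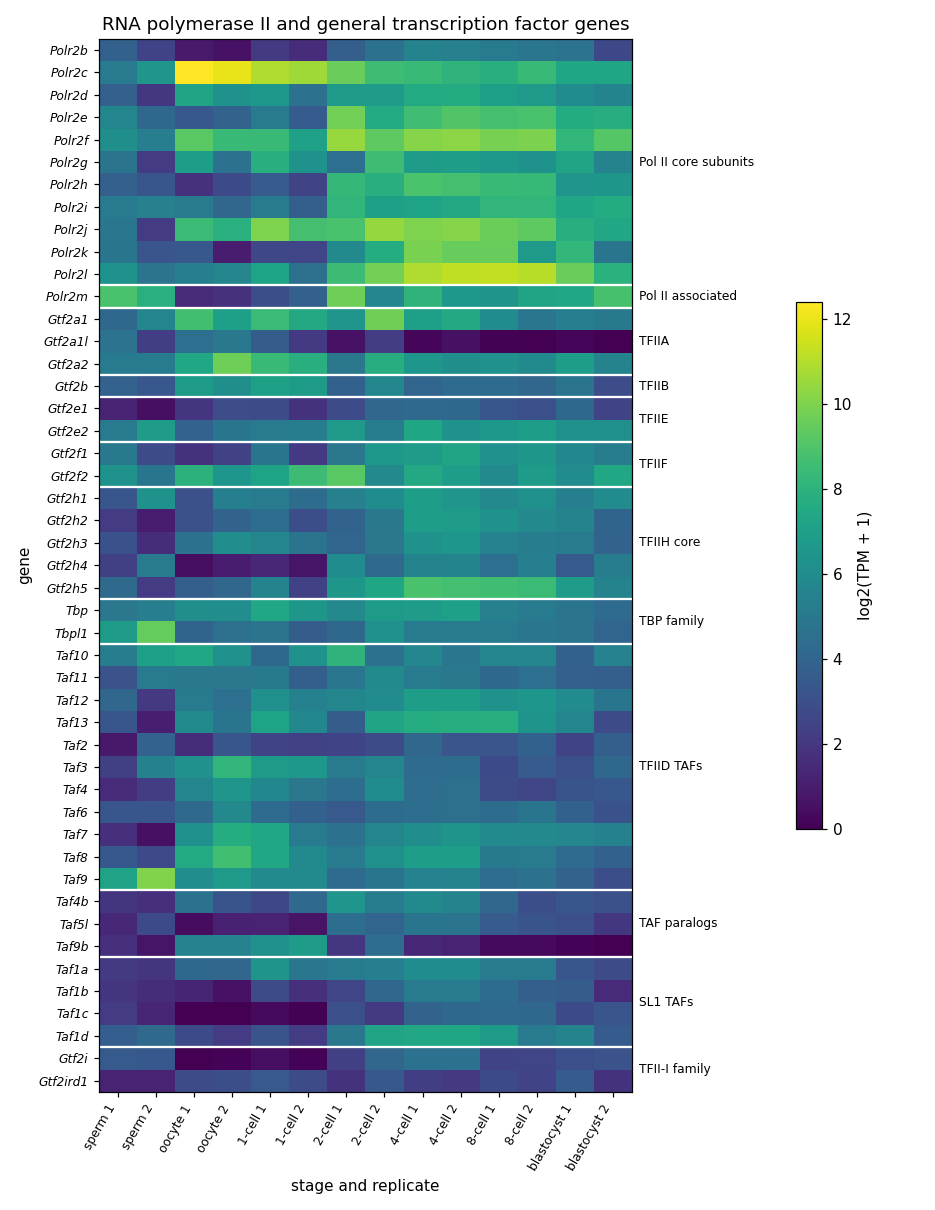
Heat map of the 47 measured members (rows) by stage and library (columns), coloured on a log2(TPM + 1) scale, ordered by complex. Many core polymerase and TFIIH subunits were low in the oocyte and 1-cell libraries and high in the 4-cell libraries, whereas Polr2c and Taf9b ran the other way.

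Among the 11 measured core subunits, 1 gene, Polr2c, made up most of the RNA in oocytes and little of it after the 2-cell stage. Polr2c (ENSMUSG00000031783.10, chr8:94857450-94873535, plus strand, mm10) encodes a subunit that helps nucleate polymerase assembly. Its levels were 5359 and 3963 TPM in oocytes, 1909.5 and 1577 TPM at the 1-cell stage, 764 and 376 TPM at the 2-cell stage, 329.5 and 264 TPM at the 4-cell stage, 219 and 340.4 TPM at the 8-cell stage, 155 and 155 TPM in blastocysts, and 32.5 and 87.3 TPM in sperm. Every oocyte and 1-cell library lay above every later library. Its share of the summed TPM of the core subunits was 80.4% and 83.9% in oocytes, 50.4% and 68.5% at the 1-cell stage and 4.88% and 3.70% at the 4-cell stage. Without Polr2c, the core sum was 1310 and 761 TPM in oocytes, 1881 and 725 TPM at the 1-cell stage and 6424 and 6871 TPM at the 4-cell stage. The merged annotation held Polr2c as a 10-exon transcript that began 1563 bases upstream of the nearest annotated start, and as an 8-exon transcript. The 10-exon transcript carried 82.3% to 99.2% of the gene's TPM, so reads from the annotated start cannot be told apart from it. That upstream start was read in the 2-cell pool only. The oocyte, 1-cell, 4-cell, 8-cell and blastocyst pools held a 9-exon transcript matching the annotation. It began at -68 to -2 bases relative to the nearest annotated start. The 8-exon transcript lacked coding exon 5, whose 129 bases are a multiple of 3, and carried 15.6% of Polr2c TPM in 2-cell replicate 2 and 10.7% and 17.7% at the 4-cell stage. The skipped exon, at chr8:94861711-94861839 on the plus strand of mm10, is shown as the part by which the 8-exon transcript differs in coding sequence.
Polr2c exon 5: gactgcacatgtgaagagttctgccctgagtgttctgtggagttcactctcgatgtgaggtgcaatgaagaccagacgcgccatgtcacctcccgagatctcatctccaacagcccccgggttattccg

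From the 1-cell to the 4-cell stage, the small subunits that RNA polymerase II shares with RNA polymerases I and III rose together. All 5 of them (Polr2e, Polr2f, Polr2h, Polr2k and Polr2l) passed the test as higher, with a median change of 5.18 on the log2(TPM + 1) scale. The 6 subunits found only in RNA polymerase II had a median of 1.33, with 3 higher (Polr2b, Polr2d and Polr2i), Polr2c lower and 2 (Polr2g and Polr2j) not called. Across all members, 24 of 47 (51.1%) were called, against 50.7% of all 13465 features. The members were called no more often than features at large: 19 were higher and 5 lower, where 36.2% of all features were higher and 14.5% lower. Only Taf9b was still called lower without 1-cell replicate 1 or without 4-cell replicate 1. The lower calls of Gtf2b, Gtf2a1l, Taf3 and Polr2c thus needed each of these libraries. Without 1-cell replicate 2 the lower call of Taf3 was lost, and those of Taf9b, Gtf2b, Gtf2a1l and Polr2c stayed. Without 4-cell replicate 2, Taf9b and Gtf2a1l were the 2 lower calls. With all libraries, the median change of the 47 members was 1.20, against 1.02 for all features. The test was limma's moderated test across all features with Benjamini-Hochberg adjustment and n = 2 per stage. When each stage was weighted by its own spread, 24 members were higher and 6 lower, where 69.6% of all features were called. Under quantile normalization, which moved the median of all features to 0.04, 16 members were higher and 7 lower (49.95% of all features were called), with all 5 shared subunits among the higher ones; Polr2d, Polr2m and Taf4b were not called there, and Taf4 was lower.

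Polr2h (ENSMUSG00000021018.8, chr16:20717665-20722267, plus strand) held 10.7 and 4.74 TPM at the 1-cell stage, 304 and 218 TPM at the 2-cell stage and 469.6 and 425 TPM at the 4-cell stage. Its change to the 4-cell stage was 5.77 ± 0.69 on the log2 scale (SE, adjusted p = 6.62e-05). Polr2k (chr15:36174010-36177010, plus strand) held 5.15 and 5.11 TPM at the 1-cell stage, 60.6 and 201 TPM at the 2-cell stage and 967 and 725 TPM at the 4-cell stage. It had the highest change among the members, 7.09 ± 1.20 (adjusted p = 5.26e-04). Its 8-cell libraries differed widely, at 722 and 100.2 TPM. Polr2l (chr7:141471860-141475132, minus strand) went from 146 and 22.7 TPM at the 1-cell stage to 358 and 886 TPM at the 2-cell stage and 1950.3 and 2353 TPM at the 4-cell stage, a change of 5.18 ± 0.95 (adjusted p = 8.71e-04). It had 2444 and 2134 TPM at the 8-cell stage, then 747 and 240.2 TPM in blastocysts. For these 3 subunits the 1-cell and 4-cell libraries did not overlap.

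TFIIH, which opens promoter DNA, had 3 of 5 measured core members higher at the 4-cell stage (Gtf2h2, Gtf2h4 and Gtf2h5), with Gtf2h1 and Gtf2h3 not called. Of all features, 36.2% were higher, and this small group was not tested against them. With weights by stage, Gtf2h1 and Gtf2h3 were called as well, where 69.6% of all features were called. Gtf2h5, the smallest subunit, which stabilises the complex, had 45.1 and 4.34 TPM at the 1-cell stage, 93.0 and 154 TPM at the 2-cell stage and 454 and 411 TPM at the 4-cell stage. Its change was 4.79 ± 0.92 (adjusted p = 0.00111). Gtf2h4, a subunit of the ring that holds the XPB helicase, had 1.58 and 0.609 TPM at the 1-cell stage, 63.6 and 18.2 TPM at the 2-cell stage and 46.3 and 47.2 TPM at the 4-cell stage.

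SL1 is the TBP complex that serves RNA polymerase I, and its subunits carry Taf names. Of its 4 members, 3 were higher at the 4-cell stage (Taf1b, Taf1c and Taf1d) and Taf1a was not called. The share over all features was 36.2% higher, and the group was not tested against it. Taf1d had 8.38 and 3.57 TPM at the 1-cell stage, 30.4 and 152 TPM at the 2-cell stage and 173 and 160.2 TPM at the 4-cell stage, a change of 4.68 ± 0.93 (adjusted p = 0.00145). A Taf1d fragment in the merged annotation also overlapped other genes, so its value is uncertain.

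Of the 11 measured TAFs of TFIID, 0 were called higher and 1 lower from the 1-cell to the 4-cell stage, with a median change of 0.25, against 36.2% of all features higher and 14.5% lower; no test compared the groups. With weights by stage, Taf12 was also called. The lower member was Taf3, whose protein reads the histone mark of active promoters. It had 75.2 and 282 TPM in oocytes, 108 and 96.4 TPM at the 1-cell stage and 18.9 and 19.8 TPM at the 4-cell stage, a change of -2.34 ± 0.77 (adjusted p = 0.0219). Tbp, the DNA-binding subunit, had 163 and 94.5 TPM at the 1-cell stage, 55.8 and 105 TPM at the 2-cell stage and 114 and 125 TPM at the 4-cell stage. The 1-cell and 4-cell libraries of Tbp overlapped, with a change of -0.05 ± 0.67 (adjusted p = 0.956). Tbpl1, the TBP-related factor of late spermatogenesis, had a change of 0.91 ± 0.78 (adjusted p = 0.344), from 26.0 and 11.6 TPM to 32.6 and 34.9 TPM.

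The paralogs of TAFs moved in opposite directions. Taf9b (ENSMUSG00000047242.14, chrX:106206883-106221158, minus strand), a close relative of Taf9, held 44.7 and 44.3 TPM in oocytes, 76.7 and 109 TPM at the 1-cell stage, 2.85 and 20.7 TPM at the 2-cell stage and 1.70 and 1.25 TPM at the 4-cell stage. It was at 0.257 TPM or less in every 8-cell and blastocyst library, and its change from the 1-cell to the 4-cell stage was -5.23 ± 0.78 (adjusted p = 2.40e-04). Taf9, which shares exons with Ak6 so that reads could be split between the genes, had 60.2 and 58.5 TPM at the 1-cell stage and 44.4 and 46.3 TPM at the 4-cell stage and was not called. Taf4b, needed for oocyte development, had 5.34 and 17.5 TPM at the 1-cell stage, 87.7 and 37.5 TPM at the 2-cell stage and 57.3 and 45.8 TPM at the 4-cell stage. Its change to the 4-cell stage was 2.27 ± 0.80 (adjusted p = 0.0311), a call lost without 1-cell replicate 1 or either 4-cell library. Taf5l, a subunit of the SAGA coactivator, was also called higher, from 1.28 and 0.557 TPM to 27.4 and 26.6 TPM. Taf4b and Taf5l were measured through fragments of their transcripts only, as were Gtf2a1, Gtf2i, Gtf2ird1, Taf1c, Taf2 and Taf3.

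Factors that bind the promoter beside TBP included 2 more members called lower. Gtf2a1l, the germ cell form of the large TFIIA subunit, had 21.9 and 30.1 TPM in oocytes, 11.7 and 3.31 TPM at the 1-cell stage, 0.542 and 3.68 TPM at the 2-cell stage and 0.174 and 0.479 TPM at the 4-cell stage. Its change from the 1-cell to the 4-cell stage was -2.49 ± 0.68 (adjusted p = 0.00861). The pseudocount of 1 TPM understates changes at such low levels. The somatic form, Gtf2a1, had 349.8 and 176 TPM at the 1-cell stage and 127 and 175 TPM at the 4-cell stage and was not called. Gtf2b, the single subunit of TFIIB, had 108 and 71.7 TPM in oocytes, 133 and 106 TPM at the 1-cell stage, 13.5 and 51.0 TPM at the 2-cell stage and 15.5 and 19.5 TPM at the 4-cell stage. Its change was -2.70 ± 0.80 (adjusted p = 0.0139), and Polr2c, described above, changed by -2.55 ± 0.76 (adjusted p = 0.0138). In TFIIE 0 of 2 members were called and in TFIIF 1 of 2 (Gtf2f1, higher), against 50.7% of all features. With weights by stage, Gtf2e1 and Gtf2e2 of TFIIE and Gtf2a2 of TFIIA were also called, against 69.6% of all features.

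**Figure D2:**
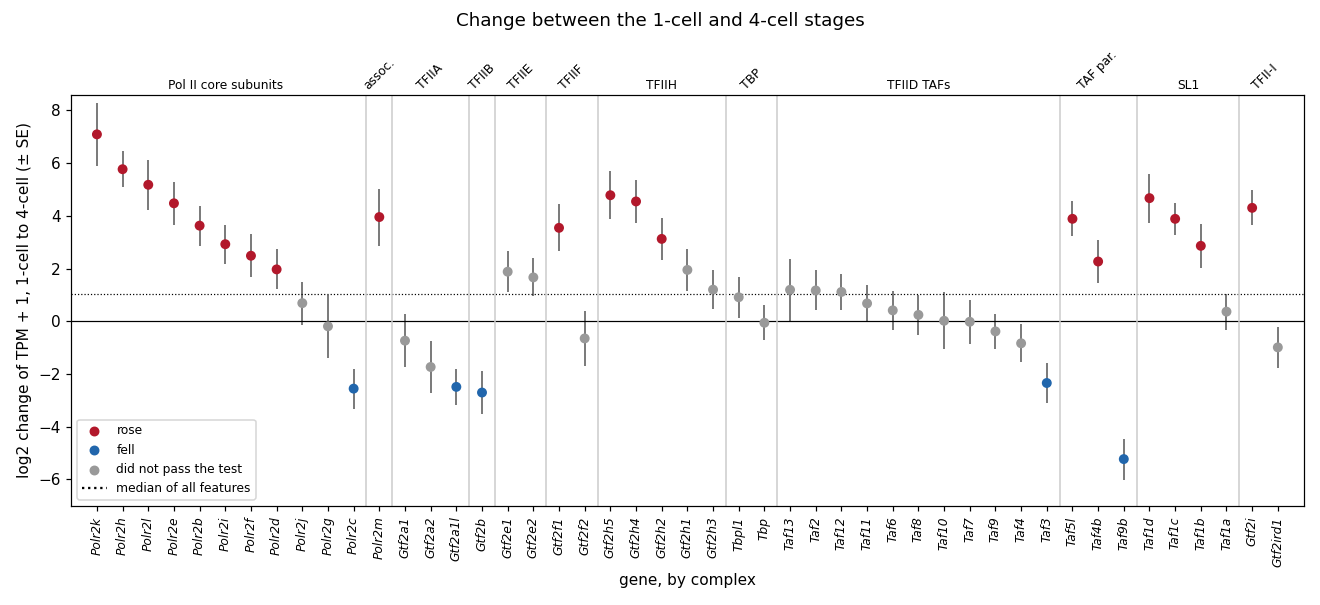
Change of each member from the 1-cell to the 4-cell stage on the log2(TPM + 1) scale, grouped by complex, with bars for the SE. Red and blue points passed the test as higher and lower, and the dotted line is the median of all features (1.02); Polr2k stands at 7.09 at the left, Taf9b at -5.23, and the TAFs of TFIID lie near the dotted line or under it.

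The promoters of members that rose and of members that fell are shown so that their letters can be compared. Each line gives the 100 bases before a RefSeq start (GRCm38.p6) in the direction of transcription, with the GC box letters GGGCGG or their reverse complement CCGCCC and, in Polr2c, the letters CCAAT in capitals. The start chosen was the one nearest to the start of the most abundant merged transcript, at a distance of 34 to 190 bases in 6 of these genes, 1563 bases in Polr2c and 2386 bases in Polr2e. The first 4 rose from the 1-cell to the 4-cell stage and the last 4 fell. These genes are a selection and do not stand for all members that rose or fell. Taf3, which also fell and had the GC box letters in its window, is not shown. Counts over all windows follow the sequences.
Polr2h, chr16:20717726-20717825, plus strand: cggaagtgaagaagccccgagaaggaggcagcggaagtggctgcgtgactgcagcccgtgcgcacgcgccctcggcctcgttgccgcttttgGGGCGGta
Polr2l, chr7:141475154-141475253, minus strand: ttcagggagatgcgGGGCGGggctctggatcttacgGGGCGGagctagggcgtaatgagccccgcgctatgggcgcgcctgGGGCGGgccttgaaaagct
Gtf2h5, chr17:6079728-6079827, plus strand: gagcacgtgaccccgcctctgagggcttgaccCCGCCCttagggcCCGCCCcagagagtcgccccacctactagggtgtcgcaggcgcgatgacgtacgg
Polr2e, chr10:80039660-80039759, minus strand: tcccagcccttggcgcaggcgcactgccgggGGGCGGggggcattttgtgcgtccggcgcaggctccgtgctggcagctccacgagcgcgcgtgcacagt
Taf9b, chrX:106219843-106219942, minus strand: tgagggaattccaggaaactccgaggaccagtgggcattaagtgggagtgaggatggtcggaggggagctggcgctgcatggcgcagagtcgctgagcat
Gtf2a1l, chr17:88668560-88668659, plus strand: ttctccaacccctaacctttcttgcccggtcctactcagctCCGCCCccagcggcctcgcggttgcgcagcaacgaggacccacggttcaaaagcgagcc
Gtf2b, chr3:142765147-142765246, plus strand: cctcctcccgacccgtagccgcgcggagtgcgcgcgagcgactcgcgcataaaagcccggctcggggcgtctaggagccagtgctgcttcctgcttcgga
Polr2c, chr8:94857350-94857449, plus strand: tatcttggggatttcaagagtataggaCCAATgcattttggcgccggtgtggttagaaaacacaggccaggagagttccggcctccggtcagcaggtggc

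Searched on both strands, GGGCGG stood in 23 of 40 windows (57.5%), the measured members with a RefSeq entry, 1 start each, against 24.7% of 32851 RefSeq promoter windows of the same length. CCGGAAG, the letters bound by ETS-family factors, stood in 7 windows (17.5%) against 4.52%. CCAAT stood in 6 windows against 18.9% of all, and TATAAA, the TATA box, in 2 against 5.56%. GGGCGG stood in 10 of the 16 windows of members that rose from the 1-cell to the 4-cell stage and in 2 of the 5 that fell. The background windows were not limited to measured genes or to 1 start per gene, so the sets are unlike. No background of measured genes was counted, and the differences cannot be read as particular to these members. These matches describe letters in a window and say nothing of binding.

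From the 1-cell to the 2-cell stage, 15 of the 47 members (31.9%) were called, 14 higher and 1 lower, against 29.9% of all features (25.3% higher and 4.57% lower), so the members again were called about as often as features at large. The core polymerase had 6 of 11 members higher, TFIIH 2 of 5, the SL1 subunits 2 of 4 and the TAF paralogs 2 of 3, whereas TFIIA, TFIIB, TFIIE, TFIIF, the TBP family and the TAFs of TFIID had 0. Polr2h rose by 4.98 ± 0.69 (SE, adjusted p = 4.38e-04). Polr2e, another shared subunit, had 32.4 and 11.1 TPM at the 1-cell stage, 853 and 188 TPM at the 2-cell stage and 387 and 516 TPM at the 4-cell stage, and rose to the 2-cell stage by 4.32 ± 0.83 (adjusted p = 0.00211). Gtf2h4 rose by 4.11 ± 0.81 (adjusted p = 0.00251) and Taf4b by 2.43 ± 0.80 (adjusted p = 0.0364). Taf9b fell, with a change of -3.34 ± 0.78 (adjusted p = 0.00673). Tbp, Tbpl1 and Gtf2a1l did not pass, at -0.69 (adjusted p = 0.462), 0.99 (adjusted p = 0.364) and -1.46 (adjusted p = 0.120).

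Polr2m and Polr2k also passed the shared-spread test at this step, with 4.33 ± 1.08 (adjusted p = 0.00968) and 4.19 ± 1.20 (adjusted p = 0.0195). Polr2m, which encodes the polymerase-associated protein Gdown1, had 818 and 52.7 TPM in the 2-cell libraries, a wide gap, after 6.92 and 12.8 TPM at the 1-cell stage. When each stage was weighted by its own spread, the adjusted p was 0.0654 for Polr2m, 0.149 for Polr2k and 0.189 for Taf4b. Leaving out 1-cell replicate 1 also ended the calls of these 3 genes, and leaving out 1-cell replicate 2 those of Taf9b and Polr2k. Gtf2h4, Polr2m and Taf4b were not called under quantile normalization, where Gtf2a1l was called. With only the 4 libraries of both stages, Taf9b and Taf4b were not called. There 10 members were higher and 0 lower, and 20.3% of all features were called. The fit weighted by stage called 5 members higher (Gtf2h4, Gtf2i, Polr2e, Polr2h and Taf5l) and Taf9b lower. It called 13.9% of all features, 12.8% higher and 1.14% lower. Without 1-cell replicate 2, 6 members were called, all higher, and 14.1% of all features. The oocyte list differed between the 2-cell libraries, as given above, and its part in these values was not tested. Under quantile normalization 10 members were higher and 5 lower at this step, with 30.6% of all features called and medians over all features of -0.11 with it and 0.84 without it.

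**Figure D3:**
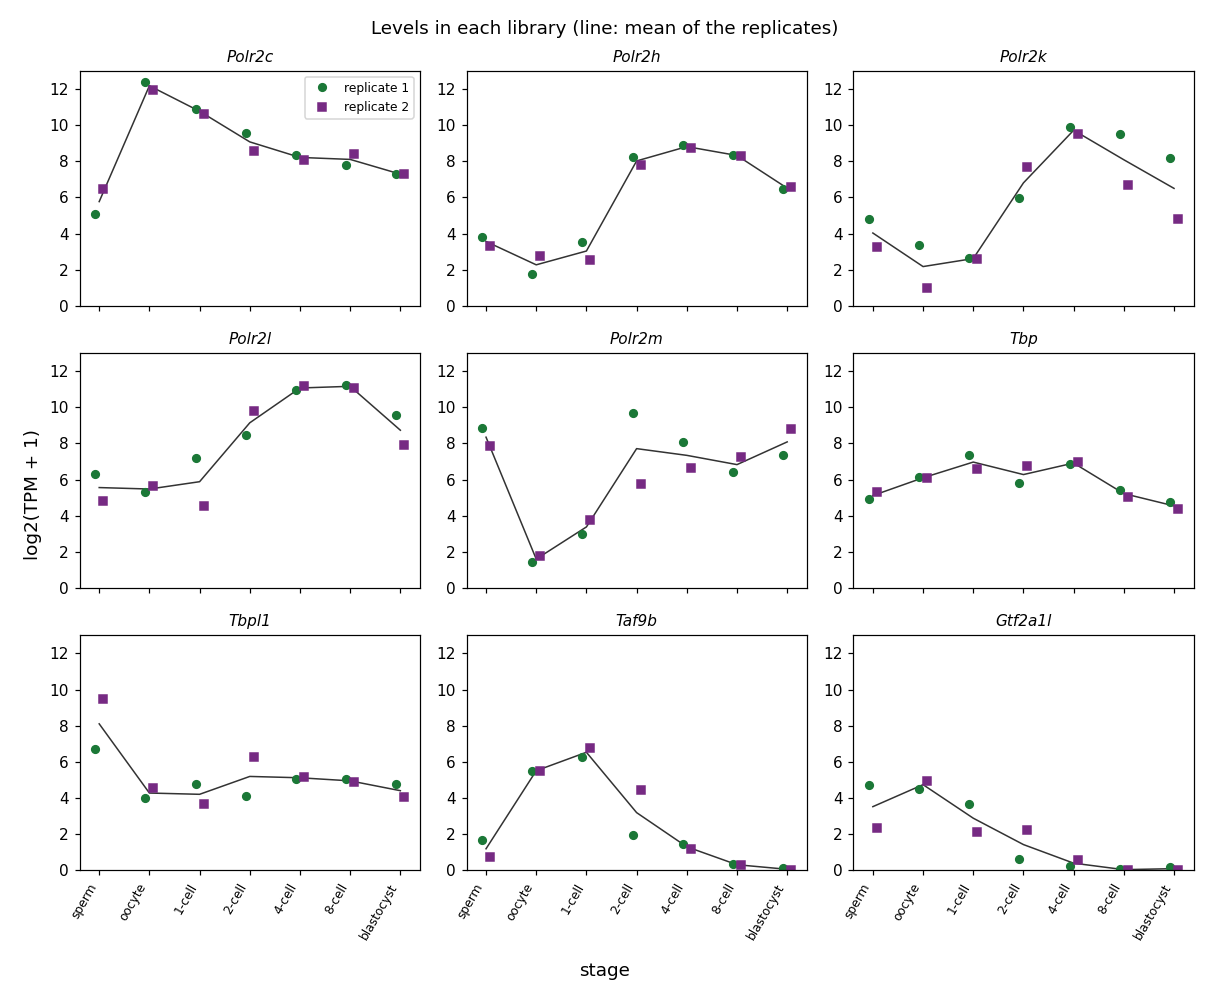
Levels of 9 members in all 14 libraries as log2(TPM + 1) by stage, with a point for each library and a line through the stage means. Polr2h, Polr2k and Polr2l climb between the 1-cell and the 4-cell stage, whereas Polr2c and Taf9b decline.

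The remaining steps between neighbouring stages had 0 of 47 members called by limma with a shared spread. Of all features, 2.90% were called at the step into the 1-cell stage, 2.64% at the step into the 4-cell stage, and 1.99% at the step into the blastocyst. At an unadjusted p under 0.05, 2 of 47 members passed from oocyte to 1-cell (1 higher and 1 lower), against 9.71% of all features. From 2-cell to 4-cell 5 of 47 passed unadjusted (4 higher and 1 lower), against 22.8% of all features, with a median change of 0.64 for members against -0.00 for all features. With quantile normalization 1 member, Gtf2a1l, was lower from oocyte to 1-cell, where 2.42% of all features were called, and 2 of 47, Gtf2h2 and Gtf2h3, were higher from 2-cell to 4-cell, where 11.3% were called. From 8-cell to blastocyst 6 of 47 passed unadjusted, all lower, against 13.1% of all features, and the median change was -0.81 for members against -0.24 for all features.

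From 4-cell to 8-cell the call depended on how the spread was pooled. The shared-spread test called 0 members and 3.75% of all features. At an unadjusted p under 0.05, 5 of 47 members passed, all lower, against 15.9% of all features. The fit weighted by stage called 13 members, all lower, where 34.2% of all features were called and 25.8% called lower, so 13 of 47 (27.7%) was near the background. Tbp had 114 and 125 TPM at the 4-cell stage and 41.2 and 32.2 TPM at the 8-cell stage, a change of -1.69 (adjusted p = 0.00180 weighted by stage, 0.221 with the shared spread). Taf4b had 16.0 and 6.77 TPM at the 8-cell stage, a change of -2.19 (adjusted p = 0.00157 weighted, 0.180 shared). Gtf2i, Taf8 and Taf4, named here after their values were seen, changed by -2.04, -1.87 and -1.75. Their 4-cell libraries lay above their 8-cell libraries: 23.4 and 23.4 TPM against 4.84 and 4.98 TPM for Gtf2i, 117 and 121 TPM against 30.7 and 33.1 TPM for Taf8, and 20.6 and 22.9 TPM against 6.43 and 5.12 TPM for Taf4. With the 4 libraries of these stages alone, 9 of 47 members were called, all lower, against 32.0% of all features.

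Sperm and oocytes, the gametes that make the embryo, held different members at high level. In oocytes 16 members were higher than in sperm and 7 lower, 23 of 47 (48.9%), against 51.0% of 14397 features. By direction, 15.5% of all features were higher in oocytes and 35.5% lower. The median difference was 1.22 for members and -0.91 for all features, and under quantile normalization, with a median over all features of -0.04 and 51.9% of them called, 21 members were higher and 4 lower. TFIID had 5 members higher and 1 lower of 11, and the core polymerase 4 higher and 1 lower of 11. The list of leukocyte and epididymal genes summed to 5993 and 675 TPM in the 2 sperm libraries and to at most 16.8 TPM elsewhere, with 3 of its 4 genes measured (Cd52, Crisp1 and Ptprc, but not Lcn5) and none of those 3 at 0 in sperm. Its part in the sperm values was not tested.

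Polr2c was 6.40 ± 0.85 higher in oocytes on the log2 scale (SE, adjusted p = 3.41e-05). Taf7, a TFIID subunit that restrains the activity of Taf1, had 2.24 and 0.469 TPM in sperm and 72.4 and 201 TPM in oocytes, a difference of 5.80 ± 0.86 (adjusted p = 8.16e-05). Taf8 had 9.70 and 5.67 TPM in sperm and 187 and 395 TPM in oocytes, a difference of 5.01 ± 0.77 (adjusted p = 1.07e-04). Polr2j had 28.1 and 3.50 TPM in sperm and 343 and 234 TPM in oocytes, and Taf9b had 2.17 and 0.650 TPM in sperm. Differences were 4.64 ± 0.97 for Polr2j (adjusted p = 0.00116) and 4.32 ± 0.79 for Taf9b (adjusted p = 4.40e-04). Taf4b was 2.15 ± 0.80 higher in oocytes (adjusted p = 0.0354), a call lost with weights by stage (adjusted p = 0.152) and without either sperm library. It was also lost without oocyte replicate 1, without either 4-cell library and with only the 4 libraries of both stages. The sperm and oocyte libraries did not overlap for any of these 6 genes.

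On the sperm side, Polr2m had 456 and 231 TPM in sperm and 1.75 and 2.37 TPM in oocytes, a difference of -6.74 ± 1.07 for oocyte minus sperm (adjusted p = 1.46e-04). Tbpl1 had 105 and 710.1 TPM in sperm and 14.8 and 22.8 TPM in oocytes (-3.83 ± 0.93, adjusted p = 0.00330), and was not called without sperm replicate 2. Gtf2i, a signal-responsive factor of the TFII-I family, had 10.5 and 9.65 TPM in sperm and at most 0.105 TPM in oocytes (-3.37 ± 0.69, adjusted p = 9.94e-04). Gtf2h4 and Polr2b, which encodes the second-largest polymerase subunit, were also lower in oocytes, at -2.99 ± 0.95 (adjusted p = 0.0156) and -2.44 ± 0.80 (adjusted p = 0.0193). Both calls were lost under quantile normalization (-1.54 for Gtf2h4 and -1.19 for Polr2b) and without oocyte replicate 1. Gtf2h4 was also lost without sperm replicate 2, and Polr2b with weights by stage, without sperm replicate 1 and without oocyte replicate 2. Taf9 was at 139 and 1067 TPM in sperm and 65.3 and 102 TPM in oocytes. Tbp and Gtf2a1l did not pass, at 0.98 (adjusted p = 0.256) and 1.22 (adjusted p = 0.234).

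Members were also compared by which isoform carried their level. Of the 96 merged transcripts of members, 47 matched an annotated intron chain exactly (49.0%, against 43.3% of all assigned transcripts), 33 were new isoforms (34.4% against 27.7%) and 15 were contained in an annotated transcript (15.6% against 19.9%). In the long-read pools, members had 34 transcripts from 25 genes in sperm, 45 from 30 in oocytes, 49 from 28 at the 1-cell stage, 61 from 37 at the 2-cell stage, 68 from 36 at the 4-cell stage, 65 from 38 at the 8-cell stage and 46 from 30 in blastocysts. In all 7 pools 11 members were read, and 2 members in 1 pool only. The share of each pool's member transcripts that matched exactly was 53.3% to 88.2%, and the same share over all transcripts of a pool was 28.9% to 56.6%.

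Isoform shares of a gene were tested for 69 transcripts of 25 members, and 8 were called, all from 1-cell to 2-cell. At that step 11.6% of 10407 transcripts were called, so member transcripts were called about as often as transcripts at large. The other steps had 0, with 0.0865% (oocyte to 1-cell), 0.144% (2-cell to 4-cell) and 0.192% (both later steps) of all transcripts called and 2 to 7 member transcripts at an unadjusted p under 0.05. None of these 8 was called when the 4 libraries of both stages were fitted alone; 1 Tbp transcript was called then, from 4-cell to 8-cell.

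Taf8, the TFIID subunit that holds Taf10 in the complex, changed its 3′ end. The transcript reaching the distal end (chr17:47483363-47502297, minus strand) carried 97.3% and 95.4% of Taf8 TPM in oocytes, 95.2% and 96.5% in 1-cell embryos, 30.1% and 52.0% in 2-cell embryos, and 19.9% and 28.6% in 4-cell embryos. The transcript that reads through into an intron (ending at 47493018 and annotated as a retained intron) went from 2.44% and 0.957% to 49.9% and 36.0% at the 2-cell stage and stood at 50.7% and 48.7% at the 4-cell stage. The 1-cell and 2-cell libraries did not overlap for either. The differences were -54.8 percentage points (adjusted p = 0.00189, limma) and 41.2 points (adjusted p = 0.00142). The 3 ends share an exon and then part, so the last 30 bases of the shared exon are shown in lower case and the first 21 bases that follow in capitals.
Taf8 distal end: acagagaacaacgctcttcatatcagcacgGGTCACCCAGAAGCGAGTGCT
Taf8 middle end: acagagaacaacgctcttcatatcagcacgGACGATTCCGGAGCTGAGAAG
Taf8 read-through end: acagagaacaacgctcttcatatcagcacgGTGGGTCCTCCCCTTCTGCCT
The capitals of the distal and middle ends lie at chr17:47483814-47483834 and chr17:47490262-47490282 and are coding in the annotation. Those of the read-through end lie at chr17:47493541-47493561. Their transcript is annotated as a retained intron and not as protein-coding, so no coding bases were counted there. Whether they could be translated was not examined.

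Polr2g, a subunit of the stalk beside the RNA exit channel, shifted at the 2-cell stage towards transcripts that skip coding exons. The full 8-exon transcript (chr19:8793123-8798581, minus strand) carried 93.5% and 93.8% of Polr2g TPM in 1-cell embryos, 67.3% and 55.2% in 2-cell embryos, and 81.2% and 77.1% in 4-cell embryos, and its fall of 32.4 points had an adjusted p of 0.00390. A transcript without exon 3 went from 4.74% and 5.86% to 29.4% and 24.0% (21.4 points, adjusted p = 0.00748). A transcript without exon 7 was at 0% in both 1-cell libraries, then at 3.32% and 20.6% in 2-cell embryos. The skipped exons, 160 and 34 bases long, are not multiples of 3 and are shown for that reason, with exon 3 at chr19:8797236-8797395 and exon 7 at chr19:8793626-8793659.
Polr2g exon 3: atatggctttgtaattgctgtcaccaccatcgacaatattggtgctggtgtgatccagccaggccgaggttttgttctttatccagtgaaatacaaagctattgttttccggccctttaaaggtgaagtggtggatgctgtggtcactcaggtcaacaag
Polr2g exon 7: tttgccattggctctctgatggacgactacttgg
The 2-cell levels of Polr2g itself were 21.9 and 377 TPM, so the shares at that stage come from libraries that differ widely in level.

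Taf6, a TFIID subunit with a histone fold, changed its start. The transcript from the annotated start (at 138187216 on chromosome 5, minus strand) carried 99.9% and 66.8% of Taf6 TPM at the 1-cell stage and 28.2% and 8.71% at the 2-cell stage, a difference of -64.9 points (adjusted p = 0.0364). A transcript that starts 2151 bases downstream of the nearest annotated start held 56.2% and 81.8% at the 2-cell stage and 66.6% and 70.4% at the 4-cell stage. In Taf11, a histone-fold partner of Taf13, a new 6-exon isoform went from 4.84% and 17.7% at the 1-cell stage to 38.5% and 53.2% at the 2-cell stage (34.5 points, adjusted p = 0.0361). It stayed between 56.1% and 71.0% in every later library. The last call was a Taf13 transcript at 0% in both 1-cell libraries, then at 33.0% and 8.57% in 2-cell embryos. This transcript and the exon 7 form of Polr2g are named as the remaining calls, after their values were seen.

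**Figure D4:**
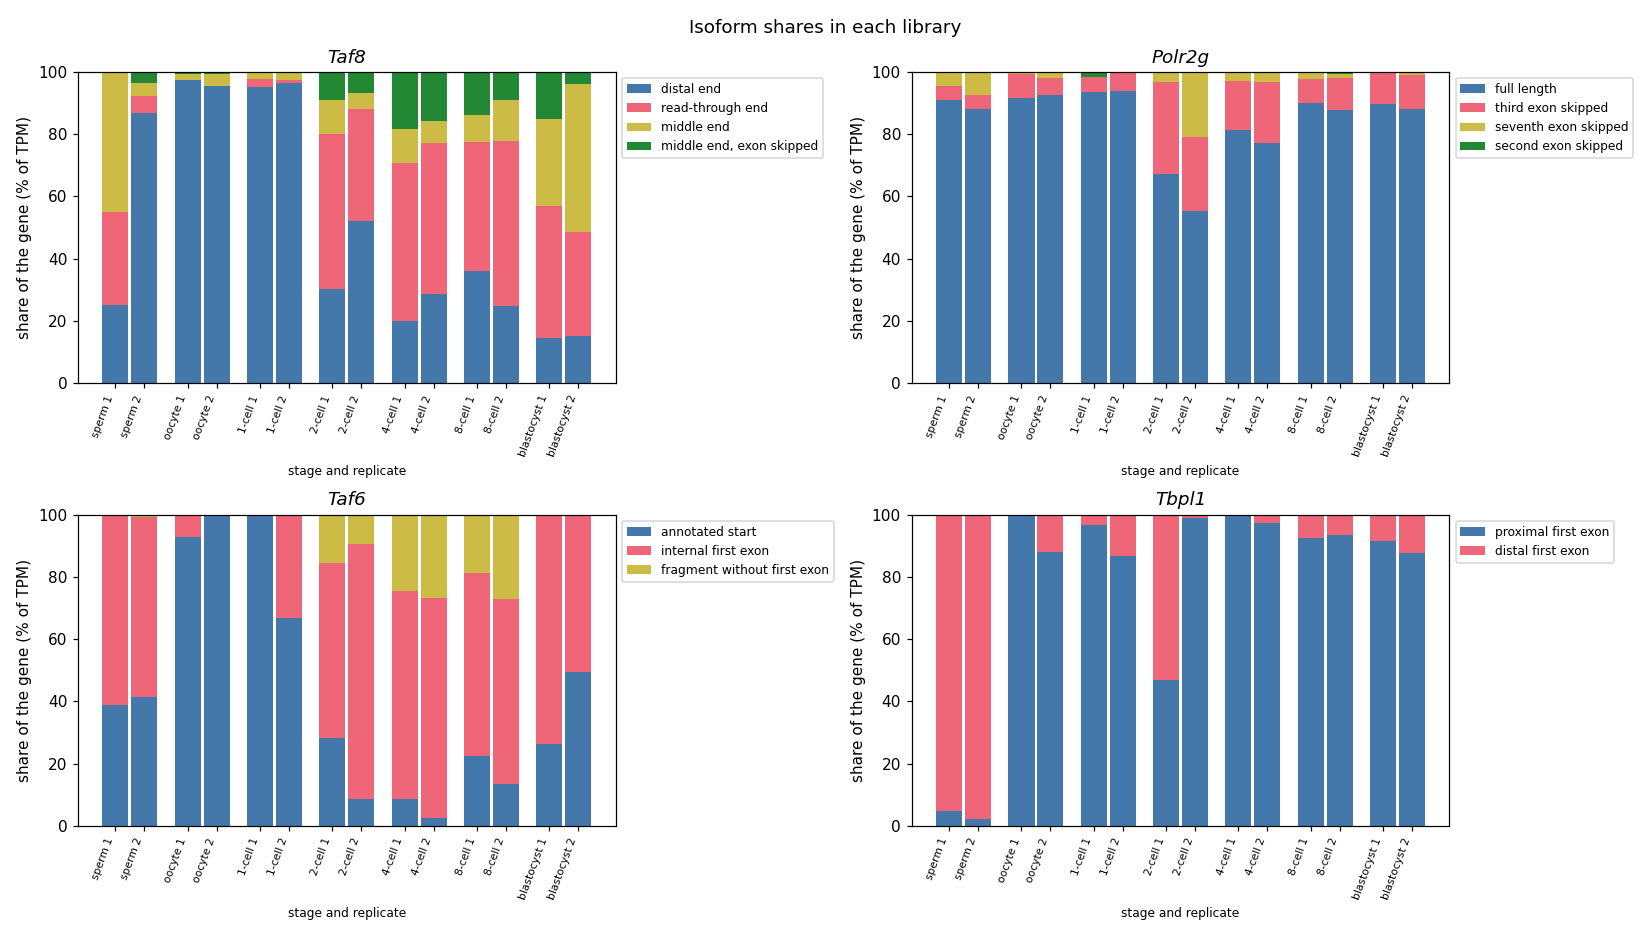
Stacked bars of the share of a gene's TPM carried by each isoform, in percent, in every library, for Taf8, Polr2g, Taf6 and Tbpl1. The distal Taf8 end holds at least 95.2% in the oocyte and 1-cell libraries and 19.9% to 52.0% in the 2-cell and 4-cell libraries, and Tbpl1 switches its first exon between sperm and the other stages.

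Tbpl1 used a different first exon in sperm. The transcript whose first exon begins at 22731891 on chromosome 10 (minus strand) carried 95.1% and 97.9% of Tbpl1 TPM in sperm, and the one starting at 22731376 carried 4.93% and 2.11%. Both match annotated protein-coding transcripts. In the 12 other libraries the sperm form held at most 13.4%, except 53.3% in 2-cell replicate 1. No test with sperm was made for isoform shares, and the long-read pools contained that first exon in sperm only. For Gtf2e2, the small TFIIE subunit, sperm libraries drew 60.5% and 55.7% from a transcript starting at 33732211 on chromosome 8. From the 4-cell stage on, 72.3% to 94.1% came from a transcript starting at 33732055. Polr2e had no merged transcript at its annotated start, and its transcripts began at positions -2250 and -2272 relative to it, as read in the 4-cell pool only, so its values cannot be told apart from those of the annotated start.

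The neighbours of these factors in the transcription cycle were taken as lists of 98 genes. From the 1-cell to the 4-cell stage, the subunits of RNA polymerases I and III had 13 of 18 tested genes higher and 0 lower, with a median change of 3.45, against 36.2% higher and a median of 1.02 for all features. Znrd1, a polymerase I subunit, went from 2.88 and 1.05 TPM to 173 and 177 TPM (5.97 ± 0.80, adjusted p = 1.30e-04). Polr1c, shared by both enzymes, went from 15.6 and 4.48 TPM to 491 and 555 TPM (5.78 ± 0.70, adjusted p = 7.45e-05). The TFIIH helicases and kinase module had 2 of 4 genes higher, Ccnh at 4.14 ± 0.71 (adjusted p = 5.42e-04) and Cdk7 at 3.59 ± 1.01 (adjusted p = 0.0103), which encode its cyclin and kinase.

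Mediator, the coactivator that bridges activators and polymerase, had 9 of 28 genes higher and 2 lower (median 1.55), against the 36.2% higher and 14.5% lower of all features that also stand beside the next lists. Med30 had 1598 and 5571 TPM at the 1-cell stage and 29.0 and 10.6 TPM at the 4-cell stage (-7.32 ± 1.10, adjusted p = 2.56e-04), while Med29 went from 5.68 and 1.37 TPM to 350.5 and 507 TPM (6.73 ± 0.77, adjusted p = 5.70e-05). The pausing and elongation factors had 11 of 27 higher and 1 lower (median 1.68), among them Supt4a, a subunit of DSIF, at 5.38 ± 0.96 (adjusted p = 7.15e-04). The lower gene was Tcea3, a TFIIS paralog, at -5.10 ± 0.73 (adjusted p = 1.91e-04). The assembly factors and tail phosphatases had 4 of 10 higher and 1 lower (median 1.34). Gpn3, a GTPase of polymerase import, had 1.66 and 0.461 TPM at the 1-cell stage and 248 and 324 TPM at the 4-cell stage (7.17 ± 0.64, adjusted p = 2.17e-05), whereas its relative Gpn2 went from 360.5 and 719 TPM to 28.0 and 24.9 TPM (-4.22 ± 0.89, adjusted p = 0.00203). Tbpl2, the oocyte paralog of Tbp, had 5.75 and 1.95 TPM in oocytes and 2.05 and 4.72 TPM at the 1-cell stage and was listed at 0 in both 4-cell libraries (-2.06 ± 0.60 on the log2(TPM + 1) scale, adjusted p = 0.0123).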

How the data were processed

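The authors aligned long reads to mm10 with GMAP, collapsed them per pool, and joined the pools with Cuffmerge into 1 transcript set, deposited as transcript coordinates. They then quantified 14 short-read libraries against that set with Salmon, and the deposited values are TPM per transcript. GSNAP, STAR and Cufflinks are also named per the labels. Libraries were made by Smart-seq2, which does not mark strand. TPM files made against each stage's own annotation, and raw reads, were not used here.

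Transcripts were assigned to GENCODE vM21 genes by same-strand exon overlap (the study's methods name an earlier release) and TPM was summed per gene. The members and gene lists were chosen with earlier results of these data known. Features at 1 TPM or more in at least 2 libraries were tested on log2(TPM + 1) with limma 3.58.1 (R 4.3.3), a shared spread over the 12 libraries from oocyte to blastocyst, or over 14 where sperm was compared, and adjusted p under 0.05 as the call. Isoform shares were tested within genes as log ratios, with a difference of at least 0.1 as a fraction also required. Tables were handled with Python 3.11.15, numpy 2.4.6, pandas 2.3.3 and matplotlib 3.10.9. The script was tested on simulated data, where the shared-spread fit made more false calls in comparisons with the 2-cell stage than the fit weighted by stage, and missed more of the smaller changes at the other steps.

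Genes named with tests were up to 5 called members with the highest rise and up to 5 with the deepest fall in each comparison whose groups did not overlap, plus Tbp, Tbpl1, Taf4b, Taf9b and Gtf2a1l whatever their values. From the other lists Tbpl2 and up to 2 called genes per list from 1-cell to 4-cell were named, and from the isoforms the 6 with the widest share difference. Further members are named with their levels only. For the 8-cell libraries the replicate number in the file names differed from the title, and the title was followed. The alternatives were a pseudocount of 0.1 TPM, a minimum of 5 TPM, no filter, transcripts overlapping exons of 1 gene only, transcripts with most of their exonic bases in the gene, quantile normalization, weights by stage, the libraries of the compared stages alone, a replicate block and leaving out each library. Promoter sequences are from RefSeq (GRCm38.p6) for the 40 of 47 measured members with an entry, and exon sequences from GENCODE vM21 transcripts.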

Additional observations from a re-analysis of the deposited data

How the results depend on the processing

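Of 782 alternative values computed for the 36 named results, 723 kept their direction and side of the threshold, 52 lost the call, 3 gained it and 4 reversed. The reversals were of uncalled values: Tbpl1 from 1-cell to 2-cell was -0.067 without 2-cell replicate 2 (range with 1 library left out, to 2.04), Tbpl1 from 1-cell to 4-cell was -0.088 under quantile normalization, and Tbp from 1-cell to 4-cell was 0.34 without 1-cell replicate 1 and 0.01 without 4-cell replicate 1 (range from -0.45). Member calls moved by more than 1.5 times under quantile normalization from oocyte to 1-cell (1) and from 2-cell to 4-cell (2), under weights by stage from 1-cell to 2-cell (6) and between the 4-cell and 8-cell stages (13), and with only the 4 libraries of both stages from 4-cell to 8-cell (9); the same restriction left 1 isoform call. Leaving out 1 library gave 6 to 16 members from 1-cell to 2-cell (6 without 1-cell replicate 2), 15 to 27 from 1-cell to 4-cell (15 without 4-cell replicate 1, with 1 lower member in place of 5), 14 to 26 between gametes (15 without sperm replicate 2, 14 without oocyte replicate 1, 15 without oocyte replicate 2), 0 to 2 from 2-cell to 4-cell (2 without either 2-cell library), 0 to 1 from 4-cell to 8-cell (1 without either 2-cell library), 0 from 8-cell to blastocyst and from oocyte to 1-cell, and 5 to 22 isoforms (5 without 1-cell replicate 1, 22 without 2-cell replicate 1). The cause was not tested. Over 15 pairs of stages, deviations of same-numbered libraries correlated at -0.49 to 0.44, with 4 over 0.1 and 7 under -0.1. The signs differed, so the replicate numbers marked no consistent pairing. This check cannot tell whether libraries of different stages shared a batch under other numbers. With a replicate block, 15 members were called from 1-cell to 2-cell, 23 between the 1-cell and 4-cell stages, 23 between gametes and 6 isoforms. TPM gives no depth per gene, and with 2 libraries per stage the precision rests on the spread pooled over stages.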
